A study of Mus musculus with 90 samples.

Results

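The passage from the 2-cell (2c) to the 8-cell (8c) stage was examined in matPlag1KO embryos, which come from Plag1 knockout mothers. Members were chosen by GEO's genotype and stage labels alone: 29 of the 90 single-embryo and single-oocyte libraries carry the Plag1 knockout genotype at 2c (14 libraries) or 8c (15 libraries), and 22 of them, 11 at each stage, passed the quality cutoff. Sexually mature knockout females were superovulated and mated with wildtype (WT) studs, so the embryos lacked a functional maternal Plag1 allele and carried a paternal WT one. The WT embryos used for comparison, 11 kept at 2c and 15 kept at 8c, came from WT females treated in the same way, and all embryos were cultured in KSOM medium. The 2c embryos were picked at 45 to 47 h and the 8c embryos at 71 to 73 h, on several occasions. The labels count these hours from fertilization, whereas the collection schedule of the study fits hours counted from the hormone (hCG) injection and mating. The colony was on the CD-1 background. The labels tie no embryo to its mother, so littermates cannot be grouped and all p-values measure the spread between these embryos.

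The newly fertilized mouse embryo is transcriptionally almost silent and lives on RNA and protein stored in the oocyte. During the 2c stage the embryonic genome is switched on (zygotic genome activation, ZGA), a short burst of 2c-specific genes and repeats is expressed, and stored maternal transcripts are cleared. By the 8c stage the embryo makes its own ribosomes and mitochondrial proteins, is about to compact, and begins to express the factors of the first cell lineages. PLAG1 is a C2H2 zinc finger transcription factor of the PLAG family, known as an oncoprotein of salivary gland pleomorphic adenoma and as an activator of Igf2. The comparison of 8c with 2c embryos asks which transcripts rose and fell over this transition in embryos without maternal PLAG1, and the comparison with WT asks which genes that lay off the WT level at 2c no longer did so at 8c.

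Each kept library held 92475 to 256529 gene counts at 2c (median 163626) and 214053 to 664771 at 8c (median 393914), with 7996 to 12247 and 6645 to 11829 spike-in counts. The 7 libraries left out had 41889 to 84921 gene counts at 2c (3 libraries) and 83 to 1721 at 8c (4 libraries). No pair of libraries within a stage differed by as little as sampling noise (the chi-square per degree of freedom was at least 3.94 over 55 pairs of 8c libraries and 4.0 over 55 pairs of 2c libraries). The labels were checked with marker genes. The summed level of 8 oocyte genes fell from a median of 6600 CPM (counts scaled to a common TMM library size) at 2c to 116 at 8c in matPlag1KO embryos, that of 7 two-cell genes went from 697 to 2.37, and that of 8 genes of the 8c stage from 214 to 488. This last sum is a weak marker. Its ranges overlapped (122 to 428 at 2c, 206 to 1370 at 8c), and its median was 251 in knockout MII oocytes. Its members Slc2a1 and Atp1b1 did not rise. With 1 matPlag1KO embryo left out in turn, their log2 fold changes (spike-in scale) lay between −2.37 and −1.05 and between −1.01 and −0.213. Tcstv1 and Tcstv3 of the two-cell list had no count in either group. Markers of cumulus cells and of sperm, which could cling to an embryo, had a median sum of 3.9 CPM each at 2c and 0 at 8c over the defining genes (7 and 5), of which Has2, Ptx3, Amh, Prm1, Tnp2 and Akap4 had no count at either stage. The longer lists of such genes, of which 12 of 26 and 8 of 19 passed the filter for testing, summed to medians of 115 and 129 CPM in matPlag1KO and 70.8 and 109 in WT embryos at 2c, and 30.2 and 35.1 in matPlag1KO at 8c. None of their tested members was called between the genotypes at either stage, the change from 2c to 8c was lower in matPlag1KO for Serpine2 of the cumulus list (log2 −2.21, adjusted p = 0.0306), and their part in the results was not tested. The summed level of the 8c-stage genes was 811 CPM in WT 8c embryos, and its part in the differences between the genotypes was not tested.

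Plag1 itself (chromosome 4) followed the labels in the oocytes, where 4 counts were found in 3 of 14 knockout MII libraries and 326 counts in 16 of 16 WT libraries. In matPlag1KO embryos the transcript was present at 2c, with 91 counts in 9 of 11 libraries, and nearly gone at 8c, with 6 counts in 4 of 11 libraries. Scaled to the spike-ins, its level was 0 to 23.5 counts per 10000 spike-in counts at 2c (median 8.16) and 0 to 2.13 at 8c (median 0). The ranges touched at 0 because 2 of the 2c libraries had no count. The fall was −3.56 on the log2 scale (SE 0.78, adjusted p = 8.07e-05, edgeR quasi-likelihood test). WT embryos had 1 count in 11 libraries at 2c and 10 counts in 5 of 15 libraries at 8c. The ratio of matPlag1KO to WT at 2c was 77.8, with a 95% counting interval of 13.6 to 3110 that covers counting error only, and the change from 2c to 8c differed between the genotypes (adjusted p = 0.0151, and 0.0618 without WT 8c embryo 11). The other family members were scarce. Plagl1 had 5 and 3 counts and Plagl2 19 and 36 counts over the 2c and 8c libraries, and neither passed the test between the stages.

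Counted transcripts rose relative to the spike-ins over the passage. The libraries were primed with oligo(dT), so the counts cover captured polyadenylated transcripts and not total RNA. Gene counts per spike-in count, on the log2 scale, were 4.07 ± 0.35 (SD, n = 11) at 2c and 5.37 ± 0.48 (n = 11) at 8c, a 2.47-fold difference. The lowest 8c embryo (4.74) lay above the highest 2c embryo (4.50), and the permutation test gave p = 2e-05, the smallest value 100000 resamples can give. The library pools labelled libA and libB are here called plates A and B. The log2 difference was 1.26 in plate A (5 against 6 embryos) and 1.39 in plate B (6 against 5). The exact permutation p was 0.00433 in each, the smallest possible. WT embryos rose 2.91-fold between the stages, and the difference between the genotypes in this rise was −0.24 on the log2 scale (permutation p = 0.241). Because a whole embryo gave each library, more counted transcripts per cell and more cells cannot be told apart.

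**Figure D1:**
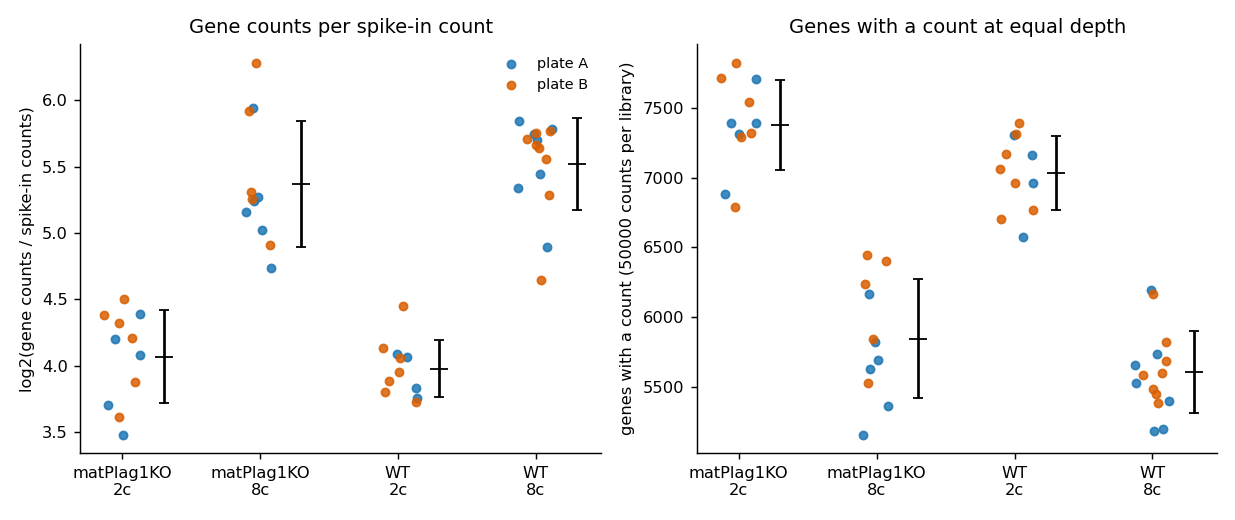
Left, log2 of gene counts per spike-in count; right, the number of genes with a count in libraries thinned to 50000 counts (y axes). Points are kept libraries by genotype and stage, coloured by plate, with the mean and SD of each group; the matPlag1KO 8c embryos start at 4.74 on the left, above the highest matPlag1KO 2c embryo at 4.50, and reach at most 6445 genes on the right, below the lowest 2c embryo at 6786.

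The 8c transcriptome was spread over fewer genes. When every library was thinned to 50000 counts, matPlag1KO embryos had a count for 7377 ± 325 genes at 2c (range 6786 to 7824) and for 5843 ± 425 genes at 8c (range 5155 to 6445). The groups did not overlap, and the difference of −1534 genes had a permutation p of 2e-05. It was −1701 in plate A and −1319 in plate B (exact permutation p = 0.00433 in each), and −1430 in WT embryos.

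Gene by gene, 4812 of the 16511 genes tested rose from 2c to 8c in matPlag1KO embryos relative to the spike-ins (29.1%) and 3213 fell (19.5%), by the quasi-likelihood test of edgeR with adjusted p-values below 0.05. The spike-in scale measures counted transcripts per embryo. The second view scaled each library to the bulk of its own genes by TMM and so measures a gene's change relative to that bulk. On this scale 3501 genes rose (21.2%) and 5008 fell (30.3%). The median gene lay at 0.30 on the spike-in scale and at −0.31 on the TMM scale (log2), so fold changes read about 0.6 apart. All 3501 genes that rose on the TMM scale also rose relative to the spike-ins, and all 3213 genes that fell relative to the spike-ins also fell on the TMM scale. WT embryos had 5269 risers (31.9%) and 2681 fallers (16.2%) on the spike-in scale. The genes shared with WT were 3810 risers, 79.2% of the matPlag1KO and 72.3% of the WT risers, and 1903 fallers, 59.2% and 71.0%.

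**Figure D2:**
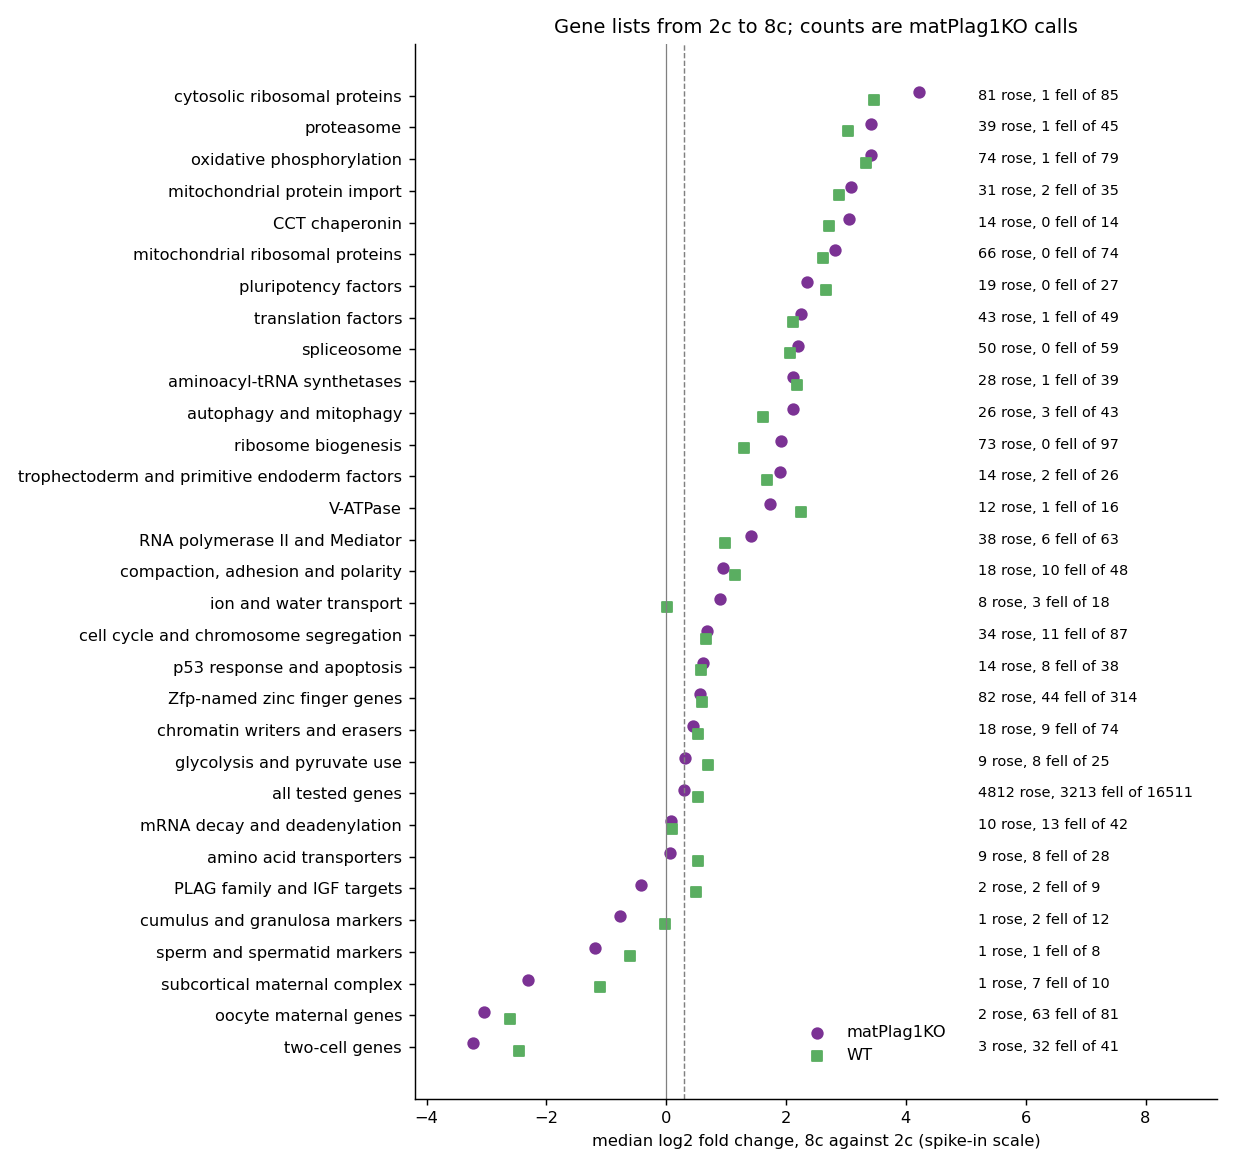
Median log2 fold change from 2c to 8c (x axis, spike-in scale) of the tested genes of each functional list (y axis) in matPlag1KO and WT embryos, with the number of members that rose and fell in matPlag1KO and a dashed line at the matPlag1KO median of all tested genes, 0.30. The cytosolic ribosomal proteins lie furthest to the right in matPlag1KO at 4.21, and the two-cell and oocyte genes furthest to the left at −3.22 and −3.04.

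Transcripts of the 2c burst were cleared. Of 41 two-cell genes tested, 32 fell and 3 rose relative to the spike-ins (median −3.22, or −2.99 with the genes without counts set at their bound, against 0.30 over all genes). Zscan4c, a gene of the telomere-lengthening ZSCAN4 cluster, had 0 to 59.5 counts per 10000 spike-in counts at 2c (median 12.2) and no count in any 8c library. Zfp352, a zinc finger gene of the 2c stage, had 21.7 to 105 at 2c (median 77.5) and 0 to 1.96 at 8c (median 0), and the groups did not overlap (log2 fold change −6.42, SE 0.59, adjusted p = 4.72e-16). Usp17lb, a member of a deubiquitinase family, had 236 counts at 2c and none at 8c, which puts it at least 77-fold lower against a floor of 3 counts over the 8c group. Among the 3 members that rose was Eif1a, a translation initiation factor, which went from a median of 1.2 (0 to 13.7) to 67.5 (52.4 to 182), a log2 fold change of 4.83 (SE 0.51, adjusted p = 1.86e-13). The Zscan4, Obox, Tdpoz, Usp17l and Tcl1b genes are families of near-identical copies, and how reads were divided between copies is uncertain.

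Maternal transcripts fell with them. Of 81 oocyte genes tested, 63 fell and 2 rose (median −3.04), and of 10 genes of the subcortical maternal complex, a protein lattice under the membrane of the early embryo, 7 fell and 1 rose. Among the largest falls were 4 genes of the Tcl1b cluster on chromosome 12, relatives of the AKT cofactor TCL1. Tcl1b1 went from 368 to 1830 counts per 10000 spike-in counts at 2c (median 1040) to 1.02 to 6.79 at 8c (median 3.31), a log2 fold change of −8.18 (SE 0.54, adjusted p = 2.06e-23). Every 2c embryo lay above every 8c embryo. Tcl1b3, Tcl1b4 and Tcl1b5 fell by 7.42, 8.25 and 8.43 on the log2 scale. Obox3, of a homeobox family named after the oocyte, had 571 counts at 2c and 1 at 8c, a ratio of 559 with a 95% counting interval of 99.9 to 22100. Whether its 2c transcripts came from the oocyte or were made at 2c was not tested. Gm11239 and Gm428 overlap on chromosome 4 and held 685 and 682 counts at 2c and none at 8c, so they may be 1 transcript counted under both names; the fall was at least 224-fold and 223-fold. Btg4, the adaptor that brings the CCR4-NOT deadenylase to maternal mRNA, fell from a median of 235 (118 to 868) to 3.2 (0 to 16.9), a log2 fold change of −5.73 (SE 0.49, adjusted p = 1.27e-17). Bmp15 and Gdf9 encode growth factors that the oocyte secretes; Gdf9 fell from a median of 63.2 to 10.7 (log2 fold change −2.66, SE 0.69, adjusted p = 0.000876), with overlapping ranges. The 2 oocyte genes that rose were Cd9, a tetraspanin of the egg surface, from a median of 15.5 to 359, and Dppa3, which protects maternal methylation marks, from 654 to 2420.

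The protein synthesis machinery rose. Of 85 cytosolic ribosomal protein genes, 81 rose and 1 fell, with a median log2 fold change of 4.21. Many have processed pseudogenes, so single values among them are uncertain. Rps3, of the small subunit, had 33.7 to 163 counts per 10000 spike-in counts at 2c (median 70.4) and 1190 to 4060 at 8c (median 1820), and no 2c embryo reached the lowest 8c embryo (log2 fold change 4.63, SE 0.54, adjusted p = 7.28e-12). Rpl3, of the large subunit, rose from a median of 19.8 (8.59 to 30.6) to 580 (236 to 1020), a log2 fold change of 5.04 (SE 0.49, adjusted p = 8.01e-15). Of 97 ribosome biogenesis genes 73 rose and none fell on the spike-in scale, while on the TMM scale 57 rose and 3 fell. Npm1, the nucleolar chaperone nucleophosmin, rose from a median of 249 (123 to 370) to 1770 (905 to 3540), and Ncl, nucleolin, from 35.7 (16.7 to 71.9) to 369 (188 to 826). Neither gene's ranges overlapped. Fbl, the methyltransferase fibrillarin, did not pass the test, with a log2 fold change of 0.63 (SE 0.59, adjusted p = 0.376). Among 49 translation factors 43 rose (87.8%) and 1 fell (2.04%). Among 39 aminoacyl-tRNA synthetases and their partners 28 rose (71.8%) and 1 fell (2.56%). Over all genes 29.1% rose and 19.5% fell. Eef1a1, which delivers charged tRNA to the ribosome, rose from a median of 144 (72.9 to 238) to 877 (569 to 1660).

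Mitochondrial genes encoded in the nucleus rose as widely. Of 79 genes of oxidative phosphorylation 74 rose and 1 fell (median 3.42), of 74 mitochondrial ribosomal proteins 66 rose and none fell (median 2.81), and of 35 genes of mitochondrial protein import 31 rose and 2 fell (median 3.09). Ndufa12, an accessory subunit of complex I, was among the largest rises of all genes: it had 0 to 3.92 counts per 10000 spike-in counts at 2c (median 0) and 68.4 to 223 at 8c (median 86.4), a log2 fold change of 7.18 (SE 0.64, adjusted p = 1.04e-16). Cox7c, a small subunit of cytochrome c oxidase, rose from a median of 10 (3.44 to 26.9) to 613 (322 to 1240). By contrast Cox8a, of the same complex, was already at a median of 269 at 2c and reached 645 at 8c, with overlapping ranges and a log2 fold change of 0.98 (SE 0.24, adjusted p = 0.000503). Mrpl21, of the large mitochondrial ribosomal subunit, rose from a median of 4.9 to 182.

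Pyruvate and glycolysis genes did not move together. Of 25 tested, 9 rose (36.0%) and 8 fell (32.0%) relative to the spike-ins, beside 29.1% and 19.5% of all genes. Pdha1, a subunit of pyruvate dehydrogenase, rose from a median of 10.3 (0.863 to 19.1) to 86.2 (38.6 to 223), a log2 fold change of 3.30 (SE 0.48, adjusted p = 8.87e-09), and Pgk1 rose by 2.25 (SE 0.47, adjusted p = 4.14e-05). Ldhb, the lactate dehydrogenase subunit abundant in the oocyte, fell from a median of 82.6 (49.3 to 593) to 5.1 (2.78 to 19.2), with no overlap (log2 fold change −4.21, SE 0.44, adjusted p = 1.68e-13).

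Protein turnover, folding and RNA processing genes rose. The counts were 39 rising and 1 falling of 45 proteasome genes (median 3.42), 14 rising and none falling of 14 genes of the CCT chaperonin and prefoldin, 50 rising and none falling of 59 spliceosome genes, and 38 rising and 6 falling of 63 genes of RNA polymerase II and Mediator. The last list had 60.3% rising and 9.52% falling, beside 29.1% and 19.5% of all genes. On the TMM scale the first 3 lists kept their balance, with 38 and 4, 13 and 0, and 38 and 3, while RNA polymerase II and Mediator had 23 rising and 13 falling. These were 36.5% and 20.6%, beside 21.2% and 30.3% of all genes. Psma2, of the proteasome core, rose from a median of 31.1 (19.4 to 67.4) to 345 (229 to 757), and Cct7, a chaperonin subunit, from 15.7 (7.14 to 35.3) to 261 (142 to 948). Polr2a, the largest RNA polymerase II subunit, did not pass the test (log2 fold change −0.11, SE 0.57, adjusted p = 0.91), whereas the small subunit Polr2l rose from a median of 114 to 773. In the autophagy list 26 of 43 genes rose (60.5%) and 3 fell (6.98%) relative to the spike-ins. Map1lc3b, the LC3 protein of autophagosomes, rose from a median of 138 (74.2 to 426) to 1860 (1300 to 2910) and its relative Gabarapl2 from 63.6 to 934, both with no overlap.

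Lineage and junction genes appeared. Of 27 pluripotency genes 19 rose and none fell relative to the spike-ins. Nanog, a homeodomain factor of the epiblast, had 3 counts in all at 2c and 222 at 8c, and its level rose from 0 to 2.94 (median 0) to 6.23 to 40.8 (median 17.6) counts per 10000 spike-in counts (log2 fold change 5.67, SE 0.65, adjusted p = 4.71e-12). Sox2 had 3 counts at 2c and none at 8c and was not tested. Of 26 trophectoderm and primitive endoderm factors 14 rose (53.8%) and 2 fell (7.69%), beside 29.1% and 19.5% of all genes. Tead4, which acts upstream of the trophectoderm programme, rose from a median of 2.41 to 54.1 and Gata6, a primitive endoderm factor, from 0 to 29.4. Cldn4, a tight junction protein, was among the largest rises, from 0 to 1.96 at 2c (median 0) to 9.97 to 423 at 8c (median 78.9), a log2 fold change of 7.74 (SE 0.77, adjusted p = 1.9e-14). The compaction list as a whole was mixed, with 18 rising (37.5%) and 10 falling (20.8%) of 48 beside 29.1% and 19.5% of all genes, and on the TMM scale 12 rose and 16 fell. Ezr, the microvillus linker ezrin, had a log2 fold change of −1.26 (SE 0.78, adjusted p = 0.171), and Cdh1, E-cadherin, rose from a median of 5 (1.02 to 18.8) to 55.8 (6.23 to 145), its ranges overlapping.

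The remaining large rises were in genes outside the lists. BC048679 and Abhd11os had no count in any 2c library and 739 and 182 counts at 8c, so they were at least 252-fold and 62-fold higher. Sycn, a secretory granule protein known from the pancreas, had 2 counts at 2c and 1954 at 8c, a ratio of 998 with a counting interval of 276 to 8250. Ifitm2, an interferon-induced membrane protein, rose from a median of 0 (0 to 1.12) to 28.8 (14.6 to 98.1). Of 87 cell cycle genes 34 rose (39.1%) and 11 fell (12.6%) relative to the spike-ins, beside 29.1% and 19.5% of all genes, and on the TMM scale 18 rose (20.7%) and 24 fell (27.6%), near the 21.2% and 30.3% of all genes. The Ccnb1 level, for cyclin B1, had a median of 76.3 at 2c and 76.0 at 8c (log2 fold change 0.28, SE 0.35, adjusted p = 0.533).

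**Figure D3:**
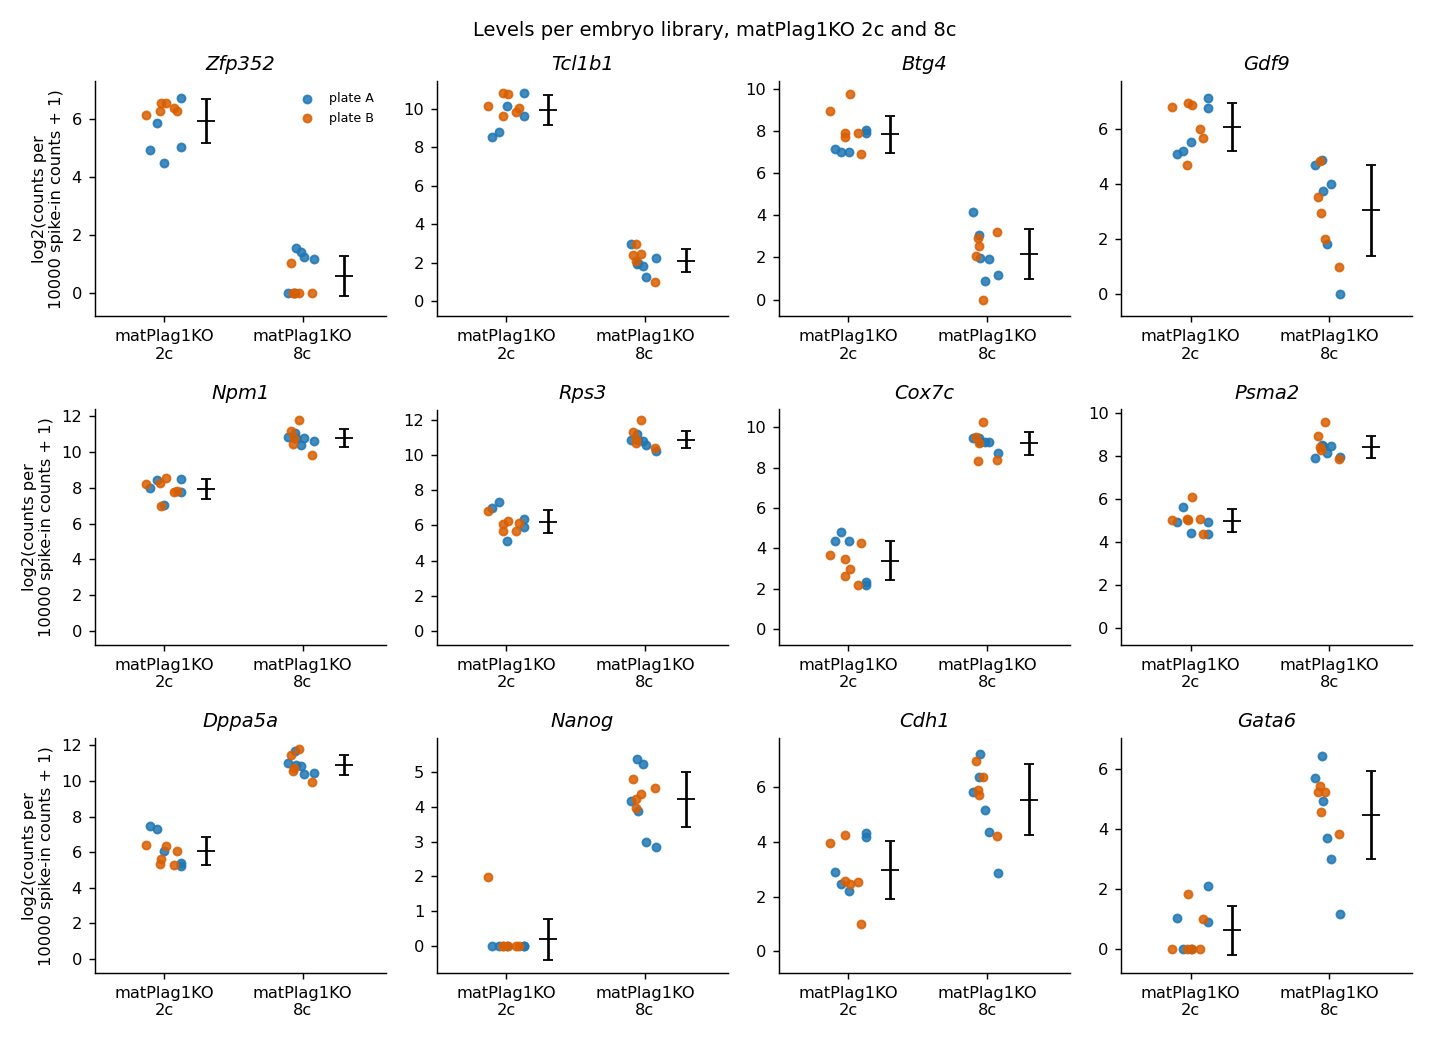
Levels of 12 genes as log2(counts per 10000 spike-in counts + 1) (y axis) in each kept matPlag1KO library at 2c and 8c, coloured by plate, with the mean and SD of the log2 values of each group. Before the log, Tcl1b1 lies between 368 and 1830 at 2c and at 6.79 or lower at 8c, while Rps3 climbs from at most 163 to at least 1190.

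The matPlag1KO and WT 2c embryos differed in 433 genes that were lower in matPlag1KO (2.62%) and 379 that were higher (2.3%), on the TMM scale. At 8c, 87 genes were lower (0.527%) and 200 higher (1.21%). Only 4 genes were called at both stages in the same direction, 2 lower and 2 higher. A gene was called a rising catch-up gene when it was lower at 2c, rose in matPlag1KO embryos on both scales, and was not called at 8c. By this rule 312 genes qualified (1.89% of the genes tested). A falling catch-up gene was higher at 2c, fell on both scales and was not called at 8c, and 215 qualified (1.3%). The rule uses the matPlag1KO 2c libraries for both the gap and the change, so the sizes given here describe the genes chosen and no test is drawn from them. A gene not called at 8c is not shown to equal WT there. Of the 433 lower genes, 360 rose relative to the spike-ins, 315 rose on both scales, and 73 did not rise. Of the 379 higher genes, 216 fell and 163 did not fall. The test of the change itself, the interaction of genotype and stage, called 187 genes with a higher change in matPlag1KO than in WT (1.13%) and 193 with a lower one (1.17%). Among them were 78 rising and 43 falling catch-up genes. The interaction reuses the 2c values of the rule, so this overlap is partly built in. The 2c and interaction p-values printed below for catch-up genes are adjusted over all genes tested and are no separate support for a catch-up. The counts of genes called leaned on single embryos. Without matPlag1KO 2c embryo 8 (plate B) there were 251 lower and 206 higher genes at 2c and 187 rising and 121 falling catch-up genes, without embryo 2 (plate A) 287, 245, 215 and 137, and without embryo 4 (plate A) the interaction called 298 genes with a higher change. Without any of 8 of the 11 matPlag1KO 8c embryos the 87 genes lower at 8c moved by over 1.5 times, down to 41. WT embryos mattered as well: without WT 2c embryo 6 (plate A) there were 241 lower and 210 higher genes at 2c and 171 rising and 122 falling catch-up genes, without WT 2c embryo 9 (plate B) 237 higher genes and 136 falling catch-up genes, and without WT 8c embryo 6 or 7 (plate A) 51 or 43 genes lower at 8c.

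The rising catch-up genes had a median log2 fold change from 2c to 8c of 3.24 in matPlag1KO and 1.85 in WT embryos (spike-in scale). Their median difference between the genotypes was −1.46 at 2c and −0.07 at 8c (log2, TMM scale). The median of the genes' mean levels was 39.8 CPM at 2c and 185 at 8c in matPlag1KO, and 104 and 196 in WT. In MII oocytes it was 21.1 CPM in knockout and 18.7 in WT. Single embryos spread widely at 2c: averaged over the 312 genes as log2(CPM + 1), matPlag1KO 2c embryos lay between 4.03 and 5.58 and WT 2c embryos between 5.07 and 7.02, so the groups overlapped. In WT, 245 of the 312 also rose relative to the spike-ins.

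**Figure D4:**
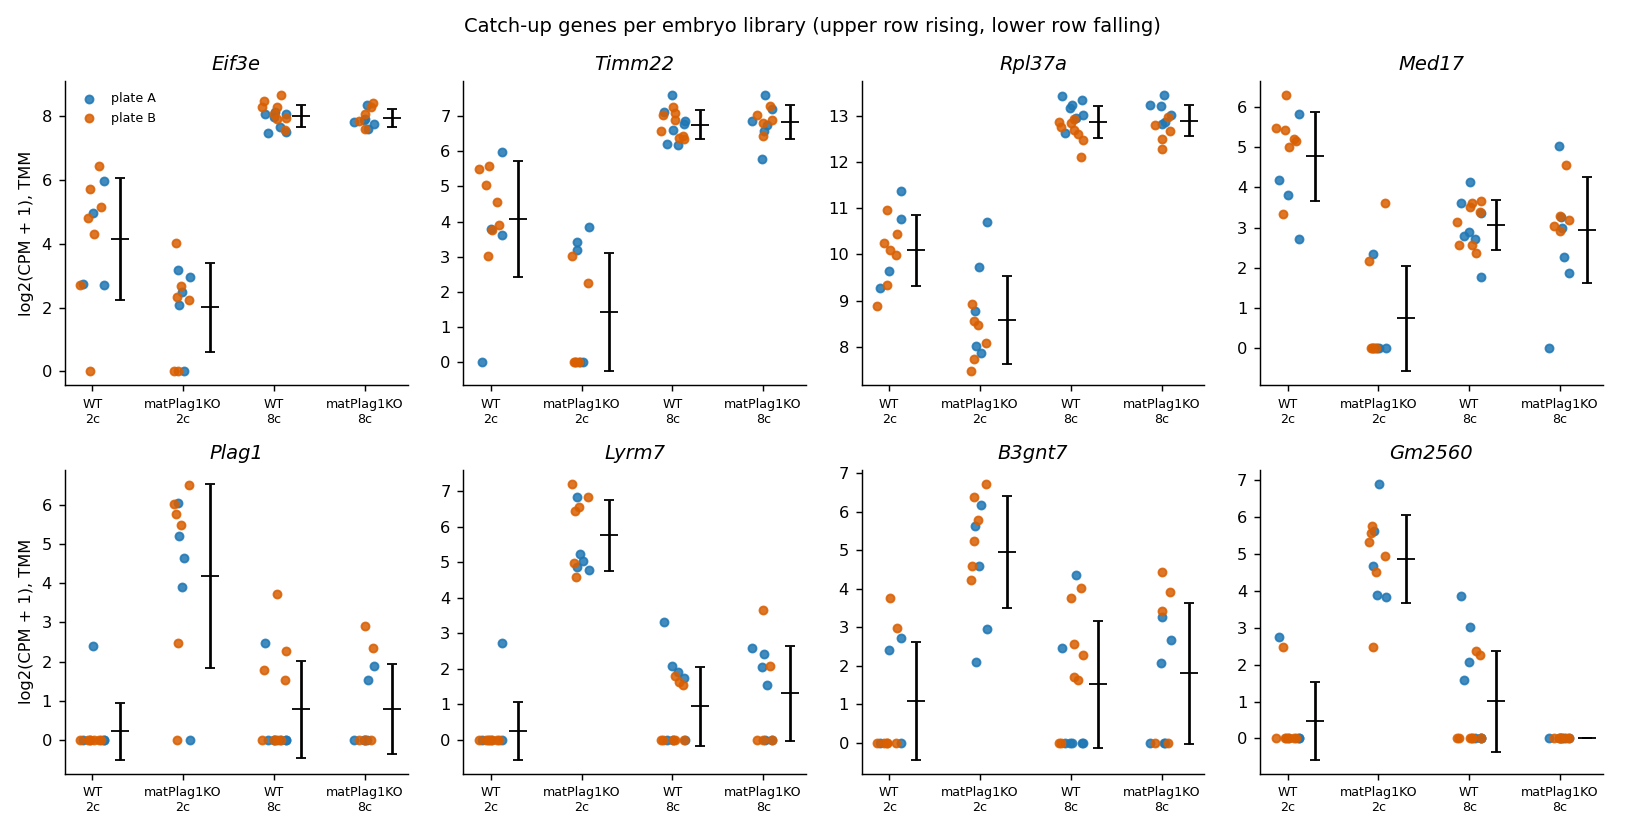
Levels as log2(CPM + 1) on the TMM scale (y axis) of 4 rising (upper row) and 4 falling (lower row) catch-up genes in WT and matPlag1KO embryos at 2c and 8c, each point an embryo coloured by plate, with the mean and SD of each group. Eif3e and Timm22 show a gap between the genotype means at 2c, with overlapping embryos, and none called at 8c.

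Ribosomal protein genes were the most frequent functional group. Of the 85 tested, 26 were lower in matPlag1KO at 2c and all 26 were rising catch-up genes (30.6% of the list, against 1.89% of all genes). The rule admits only genes that rose on both scales. These were 81 of this list, 57 ribosome biogenesis genes, 34 translation factors and 3501 of all genes, 312 of the last being rising catch-up genes. Rpl37a, of the large subunit, had a median of 70.6 counts per 10000 spike-in counts at 2c (34.9 to 267) and 2610 at 8c (1820 to 4450), was lower than in WT at 2c by a log2 difference of −1.36 (adjusted p = 0.00208), and rose more than in WT by 1.38 (adjusted p = 0.0322). Rpl14 rose more than in WT by 1.51 (adjusted p = 0.0442), a call that was lost when any of 13 matPlag1KO or 10 WT libraries was left out, and the Rpl37a call was lost without any of 5 or 2. The calls at 2c for Rps3 and Rps29 were lost without any of 2 or 5 matPlag1KO libraries and 2 WT libraries each. For the other 24 ribosomal protein genes of the group, Rps3, Rps29 and Rps14 among them, the interaction was not called. Of 97 ribosome biogenesis genes, 17 were lower at 2c and 16 of them were rising catch-up genes (16.5% of the list). They included the helicases Ddx10 and Ddx21, the small nucleolar particle proteins Nop58, Nop10 and Nhp2l1, and the nucleolar stem cell protein Gnl3. Ddx21 had 148 counts over the 2c embryos against 448 in WT, a log2 difference of −1.74 (adjusted p = 0.000472), and 0.14 at 8c (adjusted p = 0.909). Its rise exceeded that in WT by 1.88 (adjusted p = 0.00676). Of 49 translation factors, 6 were rising catch-up genes (12.2%). All of them belong to the initiation factors eIF2 (Eif2s1, Eif2s2) and eIF3 (Eif3a, Eif3e, Eif3g, Eif3k). Eif3e had 0 to 2.5 counts per 10000 spike-in counts at 2c (median 1.02) and 56.1 to 178 at 8c (median 79.5). It was lower than in WT at 2c by a log2 difference of −2.74 (adjusted p = 0.000135), with 10 counts against 64, and differed by −0.07 at 8c (adjusted p = 0.998). Its rise exceeded that in WT by 2.67 (adjusted p = 0.00274).

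In the mitochondrion, 6 of 35 protein import genes (17.1%), 7 of 79 oxidative phosphorylation genes (8.86%) and 5 of 74 mitochondrial ribosomal proteins (6.76%) were rising catch-up genes, beside 1.89% of all genes. The rule admits only genes that rose on both scales. These were 28, 70 and 60 members of the lists, and 3501 of all genes, 312 of them rising catch-up genes. Among such genes, oxidative phosphorylation and mitochondrial ribosomal proteins lay near the rate of all genes. Import was represented by the inner membrane channel subunits Timm17a and Timm22 and the outer membrane subunits Tomm5, Tomm6, Tomm22 and Tomm70a. The calls at 2c for Tomm5 and Tomm70a were lost without any of 5 or 7 matPlag1KO and of 3 or 5 WT libraries. Timm17a went from a median of 21.4 (6.9 to 50.5) to 500 (309 to 1040) counts per 10000 spike-in counts. It was lower than in WT at 2c by −1.82 (adjusted p = 0.000307), and its rise was larger by 1.68 (adjusted p = 0.0191). Timm22 had 10 counts at 2c against 50 in WT, a log2 difference of −2.49 (adjusted p = 0.00251), and 0.09 at 8c (adjusted p = 0.989). Mrpl39 had 4 counts against 41 at 2c and 672 against 1224 at 8c, with log2 differences of −3.37 (adjusted p = 0.000908) and −0.14 (adjusted p = 0.94).

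Further groups with rising catch-up genes were 7 of 45 proteasome genes (15.6%, Psma3, Psma6, Psmb1, Psmb2, Psmd7, Psmd11 and Shfm1), 5 of 59 spliceosome genes (8.47%, Sf3b1 and Snrpa among them), 5 of 63 genes of RNA polymerase II and Mediator (7.94%, Med4, Med8, Med17, Med31 and Polr2h), 4 of 43 autophagy genes (9.3%, Atg101, Bnip3l, Gabarapl2 and Map1lc3b) and 3 of 27 pluripotency genes (11.1%). The share over all genes was 1.89%. Members that rose on both scales, as the rule requires, were 38, 38, 23, 24 and 18 in these lists, in this order. Over all genes 3501 rose so, 312 of them rising catch-up genes. The share of 1.89% therefore overstates the contrast with these lists. The calls at 2c for Psmb1, Shfm1 and Gabarapl2 were lost without any of 5, 6 or 3 matPlag1KO and of 3, 4 or 1 WT libraries. The pluripotency genes were Dppa2 and Dppa4, which activate genes of the 2c burst, and Dppa5a. Dppa2 was lower than in WT at 2c by −1.57 (adjusted p = 0.000127), and Dppa5a by −1.72 (adjusted p = 0.00188); both rose without overlap of the stages, from medians of 37 to 448 and of 65.3 to 1840 counts per 10000 spike-in counts. None of the genes of the aminoacyl-tRNA synthetase, V-ATPase, glycolysis, lineage, compaction or chromatin lists was a rising catch-up gene. These lists held 39, 16, 25, 26, 48 and 74 tested genes. At a share of 1.89%, a list of such a size can hold none without differing from the rest.

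The rising catch-up genes with the widest gaps at 2c were scarce there. Reep3, an endoplasmic reticulum shaping protein, had 3 counts over 11 matPlag1KO embryos against 43 in WT (ratio of WT to matPlag1KO 16.8, 95% counting interval 5.37 to 84.5). All 3 came from matPlag1KO 2c embryo 2 and 62.8% of the 43 from WT 2c embryo 9, without which the ratio was 6.89 and the gene was not called at 2c (adjusted p = 0.0533). Med17, of the Mediator head, had 5 against 66 counts, a log2 difference of −3.86 (adjusted p = 0.00122). Krt28 had 4 against 45 (adjusted p = 0.00521) and the microRNA gene Mir7238 had 7 against 53 (adjusted p = 0.00186). Pknox1, a TALE homeodomain factor, had 15 against 86 counts at 2c (adjusted p = 0.00188) and rose from a median of 1.07 to 17.5 counts per 10000 spike-in counts, without overlap. At 8c none of these 5 genes was called between the genotypes.

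Sequences upstream of catch-up genes are shown because the study derived a 31-base motif with a PLAG1 binding site from promoters and looked for it in this gene group. The majority base at each position over 169 sites (81 different sequences) listed by the study, sites which lie in promoters chosen on these same libraries, gives the first line below. Capitals mark the bases fixed by the pattern GAGGCNNNNNNAGG, which was chosen here. It differs from the study's PLAG1 consensus, which allows G or A, or G or T, at some positions. Whether the sites match that consensus in full was not tested. The other lines give a closest match, on the strand of the motif, for some of the genes named above. For Sf3b1 and Nhp2l1 another match had as few mismatches. Coordinates are mm9, and each site was intergenic in the annotation.
majority sequence: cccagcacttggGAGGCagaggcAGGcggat
Rpl37a, chr1:72757008-72757038, plus strand: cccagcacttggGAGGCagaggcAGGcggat
Timm17a, chr1:137211994-137212024, minus strand: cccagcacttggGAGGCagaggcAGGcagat
Sf3b1, chr1:55084655-55084685, plus strand: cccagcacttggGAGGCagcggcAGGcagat
Ddx10, chr9:53057337-53057367, minus strand: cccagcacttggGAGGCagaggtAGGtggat
Nhp2l1, chr15:81878329-81878359, minus strand: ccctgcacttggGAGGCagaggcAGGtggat
Pknox1, chr17:31700206-31700236, minus strand: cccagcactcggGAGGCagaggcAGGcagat

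The Rpl37a site equals the majority sequence and has its centre at −811 bases from the transcription start. The Timm17a site differs from it at 1 base and the other 4 at 2 bases. Their centres lie at −1695 for Timm17a, −348 for Sf3b1, −1135 for Ddx10, −316 for Nhp2l1 and −1497 for Pknox1. All keep the capital letters of the pattern chosen here, but the lines show only part of the matches found. Another Nhp2l1 match, centred at −1409, also differs at 2 bases and lacks these letters. Among genes without a line, the closest match keeps them for Dppa2, Rps3, Mir7238 and Tomm5. It lacks them for Dppa5a and Ndufa7. Counting matches with at most 5 mismatches on either strand between 2000 bases upstream and 500 downstream, 4118 of 16511 genes tested had at least 1 (24.9%). The share was 37.2% for the rising catch-up genes (116 of 312) and 15.8% for the falling ones (34 of 215), and 30.7% for all genes that rose and 18.7% for all that fell in matPlag1KO embryos on the spike-in scale. These shares are a description, since the sites that made the majority sequence were picked on these libraries. The sequence belongs to the B1 repeat family.

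The falling catch-up genes had a median log2 fold change from 2c to 8c of −3.35 in matPlag1KO and −0.46 in WT embryos (spike-in scale), and a median difference between the genotypes of 2.58 at 2c and 0.00 at 8c (TMM scale). The median of their mean levels was 26 CPM in matPlag1KO and 4.19 in WT at 2c, and 0.974 and 1.16 at 8c. In MII oocytes it was 18.3 CPM in knockout and 20.9 in WT, against 6.25 and 6.06 over all genes. Only 54 of the 215 were called as falling in WT. Averaged over the 215 genes as log2(CPM + 1), the matPlag1KO 2c embryos lay between 2.99 and 4.98 and the WT 2c embryos between 1.63 and 2.67, without overlap, where the rule itself used these values.

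Few of them belonged to a functional list. They were 4 of 81 oocyte genes (4.94%, beside 1.3% of all genes: Bmp15, Nlrp4a, Oog2 and Pla2g4c) and 2 of 28 amino acid carriers (7.14%: Slc7a1 and Slc36a1). The rule admits only genes that fell on both scales. These were 63 of the oocyte genes, 8 of the carriers and 3213 of all genes, 215 of the last being falling catch-up genes. Among such genes the oocyte list lay near the rate of all genes. The others were Khdc1b of the subcortical complex list, whose call at 2c was lost without any of 2 matPlag1KO or 5 WT libraries, the mitochondrial phenylalanyl-tRNA synthetase Fars2 and Ccnd1 for cyclin D1. Further ones were Uhrf1, which guides maintenance DNA methylation, Zfp957, Tdpoz4 and Plag1. Fars2 had 7.73 to 35.9 counts per 10000 spike-in counts at 2c (median 10.2) and 0 to 6.49 at 8c (median 2.2), without overlap. It was higher than in WT at 2c by a log2 difference of 1.64 (adjusted p = 0.00494) and its change was lower by −2.54 (adjusted p = 0.0048). Lyrm7, an assembly factor of respiratory complex III, had 177 counts in matPlag1KO and 1 in WT embryos at 2c, a ratio of 151 with a counting interval of 26.8 to 6010, and 9 and 10 counts at 8c. Its change was lower than in WT by −5.92 (adjusted p = 0.00366). B3gnt7, a glycosyltransferase, had 101 against 5 counts at 2c and 22 against 28 at 8c (interaction adjusted p = 0.0308, and 0.0557 without matPlag1KO 2c embryo 13, with the call also lost without WT 8c embryo 4 or 14). C920025E04Rik had 55 counts in matPlag1KO 2c embryos and none in the other 3 groups, at least 15.7-fold above WT at 2c.

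Some of the falling genes rested on few embryos. Hist4h4, a histone H4 gene, had 283 counts at 2c with a median level of 1.07 and a highest of 121 counts per 10000 spike-in counts, and 1 embryo held 48.4% of its counts. Its fall to 22 counts at 8c was not called without matPlag1KO 2c embryo 13 (adjusted p = 0.0509). The Lypd3 fall was not called without the same embryo (adjusted p = 0.0502), and 1 embryo held 60.3% of the counts of Tril. In Tdpoz4, of the two-cell list, 1 embryo held 55.1% of the counts at 2c.

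The gap at 2c was read again in libraries that did not choose the genes. In plate B alone 352 genes were lower and 150 higher in matPlag1KO at 2c, and these were followed in plate A, which shares no library with plate B (5 matPlag1KO and 4 WT embryos at 2c, 6 and 7 at 8c). The plates are library pools, so mothers and picking occasions may be shared between them. The 352 lower genes had a median difference of −0.91 at 2c in plate A (log2, TMM scale), and 17 of them (4.83%) were higher in matPlag1KO, while the median over all 15073 genes tested in plate A was 0.00. At 8c the median was −0.09, beside −0.08 over all genes. From 2c to 8c they changed by a median of 1.68 in matPlag1KO and 0.90 in WT. Of the 150 higher genes, 146 were tested in plate A, with medians of 1.02 at 2c and −0.18 at 8c and changes of −3.23 in matPlag1KO and −0.97 in WT. Averaged as log2(CPM + 1) over the 352 genes, plate A embryos lay between 4.65 and 6.77 in matPlag1KO and between 5.43 and 7.55 in WT at 2c, so single embryos overlapped. At 8c they lay between 7.41 and 7.74 and between 7.29 and 7.85. Gene by gene, plate A alone called no gene between the genotypes at 2c in edgeR's quasi-likelihood test, with 715 genes higher and 624 lower at an unadjusted p under 0.05 of 15073.

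**Figure D5:**
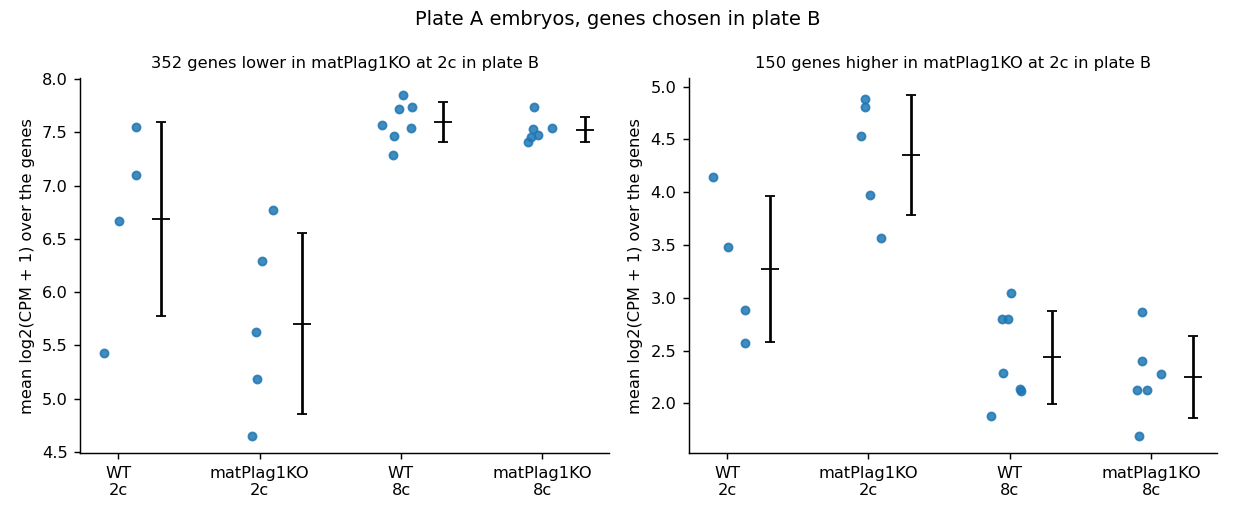
Mean log2(CPM + 1) over the 352 genes lower (left) or the 150 genes higher (right) in matPlag1KO at 2c in plate B (y axes, which do not start at 0), for each plate A embryo by group, with the group mean and SD. For the lower genes the matPlag1KO and WT means are 5.71 and 6.69 at 2c, with overlapping embryos, and 7.53 and 7.60 at 8c.

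Some genes changed by less than in WT over the passage or in the opposite direction. Aqp3, an aquaporin of the later trophectoderm, was higher in matPlag1KO at 2c (53 counts against 5, log2 difference 3.04, adjusted p = 0.00594) and lower at 8c (260 against 1252, −1.63, adjusted p = 0.0227, and 0.0512 without WT 8c embryo 7). It rose in both genotypes, from a median of 2.24 to 19.5 counts per 10000 spike-in counts in matPlag1KO, but by less than in WT (interaction −4.67, adjusted p = 0.000515). Ndufb10 of complex I and Slc2a1, the glucose carrier GLUT1, were also higher at 2c (log2 differences 2.53 and 2.99, adjusted p = 0.00854 and 0.00142) and had a lower change (adjusted p = 0.00945 and 0.013). Pou5f1, which encodes OCT4, had log2 differences of 1.00 at 2c (adjusted p = 0.116) and −0.94 at 8c (adjusted p = 0.173), and its rise was smaller than in WT by −1.95 (adjusted p = 0.0306), a call lost without matPlag1KO 2c embryo 1 or 8 (highest adjusted p 0.0928). Gapdh, a glycolytic enzyme whose many pseudogenes make its counts uncertain, had 62 and 54 counts at 2c and 5 and 77 at 8c in matPlag1KO and WT (8c adjusted p = 0.00474). Relative to the spike-ins 14 genes rose in matPlag1KO and fell in WT, and 19 fell in matPlag1KO and rose in WT.

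At 8c, 3 of the 26 lineage factors (11.5%, beside 0.527% of all genes) were lower in matPlag1KO than in WT, the trophectoderm factor Cdx2 and the keratins Krt8 and Krt18, the last 2 named after their values were seen. Cdx2 had 48 against 287 counts (log2 difference −2.0, adjusted p = 0.0471). Of the 48, 72.9% came from 1 embryo, without which the rise from 2c was not called (adjusted p = 0.132). The difference at 8c was not called when any of 10 other matPlag1KO 8c embryos (highest adjusted p 0.0826) or of 7 WT embryos (0.139) was left out. Krt8 had 81 against 515 counts (−1.91, adjusted p = 0.0258) and Krt18 48 against 320 (−1.91, adjusted p = 0.0115). The interaction was not called for Krt8 (adjusted p = 0.0703), Krt18 (0.114) or Cdx2 (0.168). Maternal genes were called in both directions at 8c. Of 81 oocyte genes 5 were higher (6.17%, beside 1.21% of all genes; Nobox, Oog1, Oas1e, Nlrp4e and Rgs2) and 1 was lower, Zp1 of the zona pellucida, with 22 against 188 counts (log2 difference −2.36, adjusted p = 0.0238, and 0.067 without WT 8c embryo 3). Also higher was Zbed3 of the subcortical complex, with 863 counts against 500 (log2 difference 1.5, adjusted p = 0.047). The Zbed3 call was lost without any of 6 matPlag1KO embryos (highest adjusted p 0.352) or 11 WT embryos (0.0742).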

How the data were processed

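Single mouse oocytes and embryos were sequenced from their 5′ transcript ends (STRT) with molecular identifiers and spike-in RNA. They were in 2 library pools, labelled libA and libB and here called plates A and B. The deposited table holds raw counts per gene and per spike-in, made by the authors from reads aligned with TopHat to mm9 and counted per gene; the submitters' processing notes also name HOMER (versions not given in the sources used here). From 24422 genes and 92 spike-ins, genes with at least 1 CPM in 5 libraries were tested, and 12 of 90 libraries whose median over these genes was under 1 CPM were left out.

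The 6 groups entered 1 model in R 4.3.3 with edgeR 4.0.16 (quasi-likelihood test, Benjamini-Hochberg adjustment over all 16511 genes, threshold 0.05), using the spike-in total as library size for the stages and TMM for the second view, the genotypes and their interaction. SE is the log2 fold change divided by the root of F. Levels are counts per 10000 spike-in counts, or CPM. The fold against a group without counts uses a floor of 3 counts over the group, and counting intervals are exact at 95%. Other comparisons used permutation tests (Python 3.11.15, scipy 1.17.1) with 100000 resamples, exact where a group held under 10 embryos. The steps were tested on simulated counts.

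Named genes were those marked in the lists, the PLAG family, the 8 largest rises and falls, the 8 widest rising and falling catch-up gaps with at least 20 CPM in the same direction in both plates, and per list up to 2 interaction calls and the 2 highest called members at 8c; members behind small counts were named after their values were seen. The members, lists and comparisons were chosen with earlier results of these data known. Where the labels are silent, embryos of 1 female may sit in 1 group. Alternatives were DESeq2 1.42.0, a likelihood ratio test, other filters, size factors and thresholds, all libraries, each plate, plate as a term and leaving out each matPlag1KO or WT embryo library. MII oocytes entered the fits and gave background levels. A few items are not reported here.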

Additional observations from a re-analysis of the deposited data

Results flagged for a closer look

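For 43 of the named genes the change from 2c to 8c differed between matPlag1KO and WT embryos by the test of the interaction (edgeR quasi-likelihood test, adjusted p under 0.05). Values are log2 differences of the change, matPlag1KO minus WT, on the TMM scale. The interaction rule is itself one of the ways genes were named, so the number is no finding.

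In genes of translation, ribosomes and mitochondria the change was higher for Eif3e (2.67), Ddx10 (2.07), Ddx21 (1.88), Rpl14 (1.51), Rpl37a (1.38), Mrpl39 (3.23), Ndufa7 (2.17), Timm17a (1.68), Timm22 (2.58), Tomm5 (1.66) and Tomm70a (3.46). Tomm70a rests on 1 count in matPlag1KO and 10 in WT at 2c. In the same lists the change was lower for Fars2 (−2.54) and Ndufb10 (−3.16).

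Among genes of transcription and RNA processing it was higher for Med17 (4.10), Med31 (2.19), Btg1 (2.85), Zfp282 (3.57), Zfp68 (2.43) and Mir7238 (2.78), and lower for Sf3b4 (−2.07) and Cnot7 (−1.85). The membrane protein gene Reep3 had 3.51.

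Pluripotency and lineage factors were Klf17 (1.97), Pou5f1 (−1.95), Utf1 (−2.27), Elf3 (−3.51) and Dab2 (−2.0). Carriers, metabolism and stress genes were Aqp3 (−4.67), Slc2a1 (−3.28), Gapdh (−2.97), Atp6v1a (−2.42), Atg2a (−2.33), Ddit4 (−2.99) and Apaf1 (2.39).

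Oocyte, two-cell and other genes were Zp1 (−2.78), Tcl1b1 (−2.17), Tdpoz5 (2.83), Serpine2 (−2.21), Plag1 (−5.66), B3gnt7 (−3.60), Gm2560 (−8.16), Hist4h4 (−6.20) and Lyrm7 (−5.92). Gm2560 had no count in the matPlag1KO 8c embryos and 2 counts in WT 2c embryos, so its fitted value depends on the prior count.

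Calls for Rpl14 and Elf3 were lost when any of 13 matPlag1KO libraries was left out, for Ddx10 any of 10, for Reep3 and Zp1 any of 7, for Rpl37a any of 5, for Tomm70a any of 4, for Atg2a any of 3, for Cnot7, Serpine2 and Pou5f1 any of 2, and for Utf1, Gapdh, Dab2, B3gnt7, Zfp68 and Tdpoz5 1 each. Among WT libraries the call for Elf3 was lost without any of 12, for Rpl14 any of 10, for Ddx10 any of 8, for Atg2a any of 6, for Zp1 any of 5, for B3gnt7, Reep3 and Rpl37a any of 2, and for Btg1, Dab2, Ddit4, Gapdh, Klf17, Ndufa7, Plag1 and Tomm70a 1 each.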

How the results depend on the processing

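No paired analysis was possible because the labels give a plate and a well but no replicate number that groups share. Settings other than leaving out a library changed no direction of the stage counts. Within single plates some of these counts moved by over 1.5 times. Plate A alone gave 2556 rising and 1750 falling genes (spike-in scale) and 2223 and 3087 (TMM scale). Plate B alone gave 4092 rising and 1932 falling genes (spike-in scale) and 2992 and 3164 (TMM scale). The cause of these moves was not tested.

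The genotype results moved more. For the interaction, counts with a higher and lower change were 318 and 304 in DESeq2, 0 and 0 in plate A (506 and 835 at an unadjusted p under 0.05), 115 and 55 in plate B, 39 and 37 at an adjusted p under 0.01, 31 and 61 with spike-in library sizes, and 124 higher with all libraries. Genes lower and higher at 2c were 0 and 0 in plate A, 125 and 73 under 0.01 and 94 and 191 with spike-in sizes, and 150 higher in plate B. At 8c they were 2 and 4 in plate A, 8 and 38 in plate B, 10 and 54 under 0.01, 15 and 91 with spike-in sizes, and 142 lower with all libraries. Rising and falling catch-up genes were 0 and 0 in plate A, 88 and 50 under 0.01, 71 and 113 with spike-in sizes, and 84 falling in plate B. In plate A the matPlag1KO change of plate B genes was 2.59 and −2.58 with spike-in sizes, and the 2c difference of the higher genes 1.67 under 0.01. Why the genotype results moved was not tested.

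Leaving out each matPlag1KO or WT library in turn gave 4465 to 4890 rising and 2963 to 3256 falling genes (spike-in scale), 3388 to 3712 and 4648 to 5025 (TMM scale), 131 to 298 and 143 to 251 for the interaction, 241 to 623 and 206 to 517 at 2c, 41 to 117 and 141 to 206 at 8c, and 171 to 461 rising and 121 to 294 falling catch-up genes; these fits were added after seeing the data. DESeq2 kept 235 of 247 values of named genes and lists on their side of the threshold, and plate A alone 181. At these depths a gene with a few counts in a group can be called only for large differences.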

Other observations

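Klf10 and Ly6e, chosen after their values were seen, were among the 19 genes that fell in matPlag1KO and rose in WT embryos relative to the spike-ins. Klf10, a TGF-beta-induced zinc finger repressor, averaged 169 CPM at 2c and 32.0 at 8c in matPlag1KO embryos and 23.5 and 54.0 in WT. Its log2 fold change was −1.63 in matPlag1KO (SE 0.65, adjusted p = 0.0306) and 2.28 in WT (SE 0.66, adjusted p = 0.00279). The changes differed by −3.62 (SE 0.80, adjusted p = 0.00627).

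Ly6e, a GPI-anchored surface protein, averaged 189 CPM at 2c and 38.2 at 8c in matPlag1KO embryos and 58.6 and 322 in WT. The log2 fold changes were −1.81 (SE 0.66, adjusted p = 0.0179) and 3.50 (SE 0.68, adjusted p = 1.04e-05), and the changes differed by −4.77 (SE 0.80, adjusted p = 0.000315).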
